A study of Mus musculus with 2 samples.

Results

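Mir219a-1, Mir219a-2 and Mir338 are miRNA genes known from the oligodendrocyte lineage, the glial cells that wrap axons of the central nervous system in myelin. They were found by gene symbol in the deposited count tables of a microRNA sequencing study of mouse neural tube, and all 3 were present among 1973 miRNA genes. Each had at least 10 reads on its own strand in both libraries, the level used here to call a gene detected, as did 363 genes in all. The study holds 1 group, neural tube of B6NCrl embryos at 15.5 days, healthy, with males and females pooled. Its biological replicates are a pool of 78 embryos (library 1) and a pool of 62 embryos (library 2), so no value belongs to a single animal and no condition can be compared with another. Spread between the libraries is spread between pools, and p-values are not given.

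MicroRNAs are cut from hairpin precursors and repress messenger RNAs that match their seed, bases 2 to 8 of the mature strand. In the mouse, miR-219 and miR-338 accumulate as oligodendrocyte precursors stop dividing and differentiate, and they repress factors that hold precursors back, among them Sox6 and Hes5, and for miR-219 also the growth factor receptor Pdgfra. In the mouse spinal cord, precursors appear before birth, while most myelin forms after it. The tissue here is a dissected mixture of cells, in which fewer cells of a type and less RNA per cell cannot be told apart.

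The mature sequences show what the 3 genes share and where they differ. They are given 5′ to 3′ from RefSeq (GRCm38.p6, the same assembly as mm10), with the seed in capitals.
miR-219a-5p: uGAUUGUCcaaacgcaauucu
miR-219a-1-3p: aGAGUUGCgucuggacgucccg
miR-338-5p: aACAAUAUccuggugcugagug
miR-338-3p: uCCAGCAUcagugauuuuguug
Mir219a-1 and Mir219a-2 both encode miR-219a-5p, letter for letter, whereas miR-219a-1-3p belongs to Mir219a-1. The 4 seeds differ from one another, and among 1738 mature entries of the RefSeq table each was found in the Mir219a or Mir338 genes only. That table is not complete. It has no 3p entry for Mir219a-2, so a 3p product of that gene is not among the sequences given and its seed was not compared.

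The hairpins show which reads can be placed in a single Mir219a copy. In the first pair below, capitals mark the longest stretch that the hairpins share, and in Mir338 they mark the annotated 5p and 3p arms.
Mir219a-2: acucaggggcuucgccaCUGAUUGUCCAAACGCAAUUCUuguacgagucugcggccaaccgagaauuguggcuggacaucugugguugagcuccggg
Mir219a-1: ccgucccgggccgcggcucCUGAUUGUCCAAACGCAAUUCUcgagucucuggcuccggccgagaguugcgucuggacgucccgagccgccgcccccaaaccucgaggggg
Mir338: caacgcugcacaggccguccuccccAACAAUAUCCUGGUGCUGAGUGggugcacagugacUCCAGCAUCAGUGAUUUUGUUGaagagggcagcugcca
The shared stretch is 22 bases long and holds all 21 bases of miR-219a-5p plus the base before it. Outside it the copies diverge, and a global alignment of both hairpins gave 63.2% identity. An exact read of miR-219a-5p therefore matches both genes. Reads with more than 1 place in the genome were set apart by the authors as multimapping, 29.4% of all reads in library 1 and 29.7% in library 2, and stand in no gene's count. Of the windows of 20 bases in the hairpins, 3 of 78 in Mir219a-2 and 3 of 91 in Mir219a-1 occur in another miRNA hairpin, in each case the other copy, and 0 of 79 in Mir338. Such sharing was found for 65 of 314 detected genes with a hairpin in the table (20.7%). Where such reads were set apart, the counts of the Mir219a genes exclude exact reads of their common 5p arm, and the Mir338 counts carry no such limit from other hairpins. The tables give a single count per gene, so the 5p and 3p arms cannot be told apart in any of the 3.

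**Figure D1:**
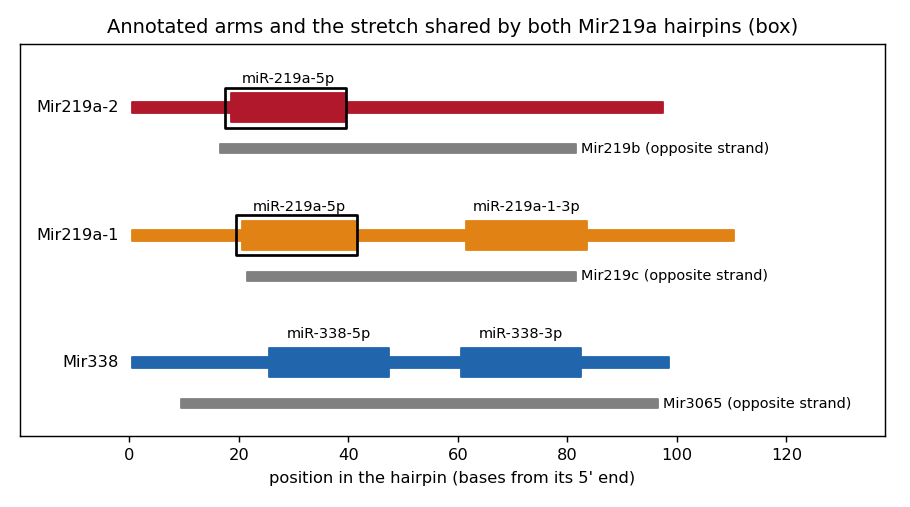
Map of the 3 hairpins in bases from the 5′ end. Thick bars are the mature arms in the RefSeq table, the black box is the 22-base stretch shared by both Mir219a hairpins, and grey bars are miRNA genes annotated on the opposite strand. The box covers the whole of miR-219a-5p in both copies and no part of miR-219a-1-3p. No 3p arm is drawn for Mir219a-2, for which the RefSeq table has no 3p entry.

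On the mm10 genome the genes lie on separate chromosomes, each on the minus strand. Mir219a-2 (ENSMUSG00000065485.1) lies at chr2:29845631-29845727, in no other annotated gene on its strand. The nearest coding gene is Urm1, which encodes a ubiquitin-like modifier of transfer RNA and proteins and ends 628 bases away on the opposite strand. Mir219a-1 (ENSMUSG00000065555.1) lies at chr17:34024983-34025092 and shares 88 bases with the non-coding gene Gm26940 on the same strand, with Ring1, a Polycomb gene, 302 bases away. Mir338 (ENSMUSG00000065600.1) lies at chr11:120014765-120014862 in an intron of Aatk, a kinase gene known from the nervous system. It overlapped an exon in 0 of 6 Aatk transcripts that span it. Positions and gene relations are from GENCODE M21.

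Mir219a-2 had by far the most placed reads of the 3, without exact reads of miR-219a-5p where these were set apart. It had 7159 reads in library 1 and 11690 reads in library 2, which come to 1693 CPM (reads per 1000000 sense-strand miRNA gene reads) and 1935 CPM. The 95% Wilson counting intervals were 1654 to 1733 CPM in library 1 and 1901 to 1971 CPM in library 2, so library 2 was higher by more than counting error. The mean was 1814 ± 171 CPM (SD, n = 2), or 0.169% of counts in library 1 and 0.194% in library 2. Intervals cover counting error of reads only and hold no spread between pools. PCR copies were not told apart from separate molecules, so the intervals may be too narrow for counts of molecules.

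Mir338 came next with 1296 reads in library 1 and 1753 reads in library 2. Its level was 306 CPM in library 1 (290.2 to 324) and 290.2 CPM in library 2 (277 to 304). The intervals overlap, and the mean was 298 ± 11.5 CPM (n = 2). Mir219a-1 was the lowest, with 405 and 615 reads in libraries 1 and 2. Its level was 95.8 CPM in library 1 (86.9 to 106) and 102 CPM in library 2 (94.1 to 110.2), again with overlapping intervals and a mean of 98.8 ± 4.28 CPM (n = 2).

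**Figure D2:**
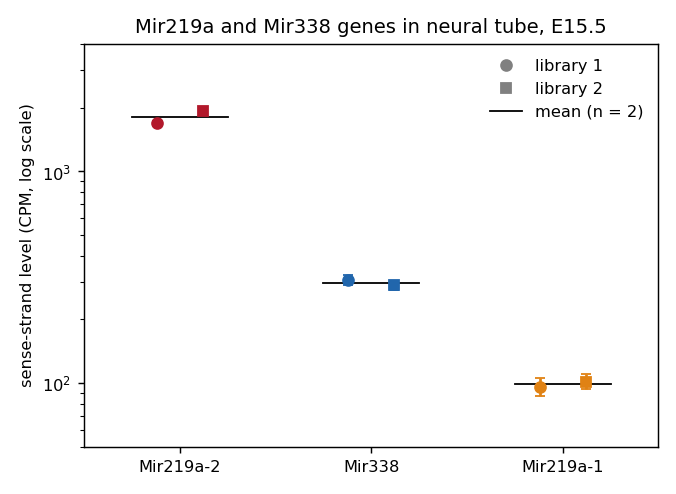
Sense-strand level in CPM on a log axis for Mir219a-2, Mir338 and Mir219a-1. Circles are library 1, squares library 2, bars 95% Wilson counting intervals (smaller than the symbol where not visible) and lines the mean of both. The order is the same in both libraries, with means of 1814, 298 and 98.8 CPM, and the ranges of the 3 genes are far apart.

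The order of levels, Mir219a-2, then Mir338, then Mir219a-1, held in both libraries, and the ranges of the 3 genes did not overlap. Per gene, Mir219a-2 had 17.7 times the reads of Mir219a-1 in library 1 (95% exact counting interval 15.99 to 19.6) and 19.0 times in library 2 (17.5 to 20.6). Per base of hairpin, with lengths of 97 and 110 bases, these ratios were 20.05 and 21.6. The annotated mature arms are 21 or 22 bases long in all 3 genes, so reads need not scale with hairpin length. Ratios per base are therefore no correction of level. Mir219a-2 had 5.52 times the reads of Mir338 in library 1 (5.21 to 5.87) and 6.67 times in library 2 (6.34 to 7.02), or 5.58 and 6.74 times per base. Mir338 had 3.20 times the reads of Mir219a-1 in library 1 (2.86 to 3.59) and 2.85 times in library 2 (2.60 to 3.13), or 3.59 and 3.20 times per base. Of all reads placed in the 3 genes, Mir219a-2 gave 80.8% in library 1 and 83.2% in library 2. Where exact reads of miR-219a-5p were set apart, the Mir219a counts leave them out, while Mir338 keeps reads of both arms. The shares and the ratios to Mir338 are then of placed reads and not of the whole output of each gene.

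The gap between the Mir219a copies was set beside that of other pairs of miRNA genes that share a mature sequence. A pair was taken where exactly 2 hairpins of the RefSeq table hold the same mature sequence and both genes were detected, which gave 18 pairs with Mir219a included. The higher copy had 18.3 ± 0.942 times the reads of the lower for Mir219a (n = 2), against a median of 2.88 over the pairs and a range of 1.06 to 93.8. A larger ratio was found for 3 pairs, Mir181b-2 over Mir181b-1 at 93.8, Mir196a-2 over Mir196a-1 at 80.8 and Mir181a-1 over Mir181a-2 at 20.7, named after their values were seen. For the pairs of neuronal genes the ratios were 4.87 for Mir218-2 over Mir218-1, 1.81 for Mir128-1 over Mir128-2 and 1.73 for Mir129-2 over Mir129-1. The Mir219a ratio moved little between the pools, with a log2 difference of library 1 to library 2 of -0.10, where the median size over the pairs was 0.10. A gene could stand in more than 1 pair, as Mirlet7c-2 and Mirlet7a-1 did. All of these are ratios of reads that were placed in a single copy. Where exact reads of the shared sequence were set apart, the ratios leave them out and do not compare the whole output of the copies.

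Among the 363 detected genes, whose median level was 136 CPM, Mir219a-2 ranked 68, Mir338 ranked 139 and Mir219a-1 ranked 198 by mean level. The ranks were 70, 139 and 203 in library 1 and 62, 134 and 186 in library 2. Just above Mir219a-2 stood Mir92b, known from neural progenitors, at 1700 CPM in library 1, against 1963 CPM in library 2, a mean of 1831 ± 186 CPM (n = 2). Then came Mir15a, of a family that restrains the cell cycle, at 1852 ± 114 CPM and the Hox-cluster gene Mir196a-2 at 1869 ± 299 CPM. Just below stood Mir708 at 1638 ± 253 CPM, Mir1983 at 1632 ± 72.8 CPM and Mir484 at 1499.7 ± 16.4 CPM. The ranges of Mir92b, Mir15a, Mir196a-2 and Mir708 overlapped that of Mir219a-2, so their order is not resolved, while Mir1983 and Mir484 were lower in both libraries.

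Around Mir338, the genes next above were Mir3099, Mir101a and Mir185, with means from 301 to 310.0 CPM, and those next below were Mir350, Mir669o and Mir363, with means from 277 to 295 CPM. All but Mir669o overlapped its range. Around Mir219a-1, the genes next above were Mir1306, Mir505 and Mir500, at 99.2 to 102 CPM, and those next below were Mir495, Mir331 and Mir32, at 93.7 to 96.1 CPM. The ranges of all 6 overlapped that of Mir219a-1. In total 11 genes overlapped the range of Mir219a-2, 17 that of Mir338 and 26 that of Mir219a-1. Nearness in level over 2 libraries is the only likeness the design can give, and a pattern across conditions cannot be drawn from it.

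**Figure D3:**
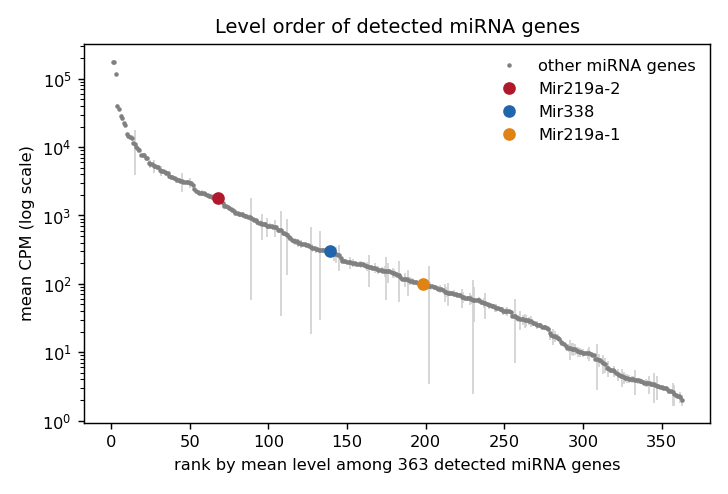
Mean level in CPM (log axis) against rank for the 363 detected miRNA genes. Vertical lines join the values of both libraries, and coloured points are Mir219a-2 at rank 68, Mir338 at rank 139 and Mir219a-1 at rank 198. Their lines are short beside those of several genes that differ widely between the pools.

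The pools gave close levels for the 3 genes. On the log2 scale, the difference of library 1 to library 2 was -0.19 for Mir219a-2 (95% exact counting interval -0.24 to -0.15), -0.09 for Mir219a-1 (-0.27 to 0.09) and 0.08 for Mir338 (-0.03 to 0.18). Mir219a-2 was thus lower in library 1, at 0.875 times its level in library 2 (0.849 to 0.901), by more than counting error, and the intervals of Mir219a-1 and Mir338 include no difference. Past 1.5-fold in either direction were 0 of the 3 genes, against 13.2% of all detected genes, which with so few genes does not set them apart. Past 1.5-fold and lower in library 1 were 0.826% of them. A counting interval wholly below 1, as for Mir219a-2, was found for 20.7% of detected genes. A counting interval wholly above 1 was found for 30.9%, and for 0 of the 3. The median log2 difference was -0.09 over the 3 genes and 0.03 over all detected genes.

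The SD between pools was 9.45% of the mean for Mir219a-2, 3.85% for Mir338 and 4.33% for Mir219a-1. The median over all detected genes was 9.32%. The progenitor gene Mir92b, next to Mir219a-2 in level, had a log2 difference of -0.21. The neuron markers summed to 8982 CPM in library 1, against 9678 CPM in library 2, with 7 of 10 genes detected. Of these 7, 2 were lower in library 1 by their counting intervals, Mir137 and Mir128-2, 0 were higher, and 5 intervals included 1. Mir137 carried most of the sum, with 6615 CPM in library 1, against 7220 CPM in library 2. The progenitor markers Mir9 and Mir92b summed to 2071 CPM in library 1, against 2353 CPM in library 2, with 2 of 3 detected. The neuronal Mir124a copies had at most 17 reads in either library. They are known to encode the same mature miRNA, so reads that match several copies may be missing from these counts and the level is uncertain. The Mir128, Mir129 and Mir218 copies of the neuron list also share a mature sequence within each pair, so that sum carries the same limit. For the Mir9 copies this was not looked at here.

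Markers of epithelium and mesenchyme were higher in library 1, and those of other cell types were mixed. The epithelial list summed to 5458 CPM in library 1, against 631 CPM in library 2, and all 7 of its genes were higher in library 1. The mesenchyme list summed to 19436 CPM in library 1, against 4569 CPM in library 2, with 5 of 7 genes detected, all of them higher in library 1. Leukocyte markers summed to 433 CPM in library 1, against 237 CPM in library 2 (3 of 4 detected, 2 higher in library 1). The gene not detected was Mir142b, the only match for the listed name Mir142, at 0 in both libraries. Erythroid markers summed to 202 CPM in library 1, against 183 CPM in library 2 (3 of 3 detected, 1 higher in library 1). The endothelial gene Mir126a had 22011 CPM in library 1, against 19666 CPM in library 2. Striated muscle markers summed to 287 CPM in library 1, against 363 CPM in library 2 (2 of 6 detected, 1 lower in library 1, 3 at 0 in both). With the epithelial and mesenchyme lists left out of the library sizes, an alternative chosen after seeing the data, the log2 difference of Mir219a-2 was -0.16. The part of tissue makeup in that difference was not tested.

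**Figure D4:**
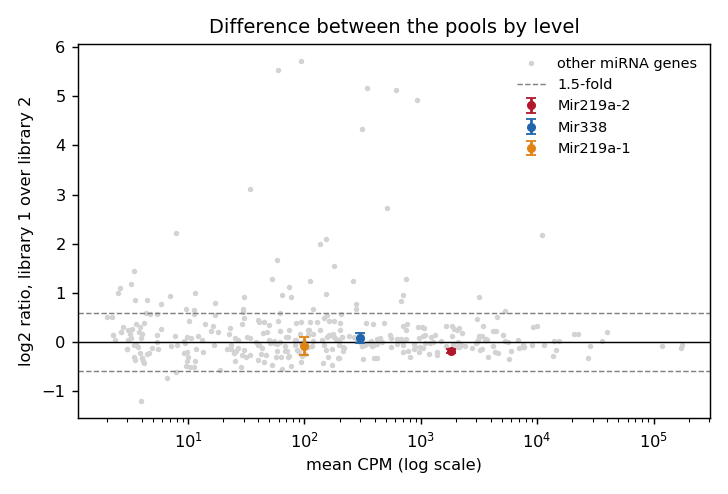
Log2 ratio of library 1 over library 2 against mean CPM (log axis) for the detected miRNA genes. Coloured points are Mir219a-2, Mir338 and Mir219a-1 with 95% exact counting intervals, and dashed lines mark 1.5-fold. All 3 lie between the dashed lines, at -0.19, 0.08 and -0.09, whereas 45 genes lie above the upper line.

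Each of the 3 loci carries another miRNA gene on the opposite strand in GENCODE M21. Mir219b overlaps Mir219a-2 by 65 bases, Mir219c overlaps Mir219a-1 by 60 bases and Mir3065 overlaps Mir338 by 87 bases. These were not analysed here as genes of their own, but reads from that strand stand in the column for the other strand of the 3 genes. At Mir219a-2 there were 0 such reads beside 7159 in library 1 and 0 beside 11690 in library 2, which allows a share of up to 0.0419% and 0.0257%, the limit that a count of 0 sets at 3 reads. At Mir338 there was 1 such read in each library. At Mir219a-1 there were 2 in library 1 and 5 in library 2, or 0.491% (95% exact interval 0.0596 to 1.76) and 0.806% (0.262 to 1.87) of the reads at the locus. Reads that match several places are missing here too.

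The sense strand thus held nearly all placed reads at the 3 loci. Of 18 detected genes with a miRNA gene annotated on the other strand, the 3 included, 8 had at least 1 read there in library 1 and 9 in library 2. Of the 345 detected genes without one, 12 and 15 did. Mir338 and Mir219a-1 are among the genes with such reads in both libraries and Mir219a-2, with the most sense reads of the 3, is not.

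Other miRNA genes with a known part in the oligodendrocyte lineage were set beside the 3, and 17 of 19 analysed genes were detected. Mir146b had 4 reads in library 1 and 10 in library 2, and Mir145b had 0 in both. The Mir7a and Mir18a genes bear the symbols Mir7-1, Mir7-2 and Mir18 in the annotation. Mir138-1 and Mir138-2, whose product favours early differentiation of oligodendrocytes, had 959 ± 39.5 CPM and 555 ± 22.9 CPM (n = 2), between Mir219a-2 and Mir338. Mir23a and Mir23b, whose product represses lamin B1, had 4514 ± 1099 CPM and 10057 ± 1613 CPM. Mir23b was the most abundant of the list. Mir7-1 and Mir7-2, whose product promotes the making of precursors, had 213 ± 10.3 CPM and 196 ± 31.1 CPM, between Mir338 and Mir219a-1.

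Genes of the Mir17 cluster, which promotes division of precursors, ranged widely. Mir17 had 9253 ± 1401 CPM, Mir20a 3036 ± 690 CPM, Mir18 2131 ± 296 CPM, Mir92-1 679 ± 268 CPM and Mir19b-1 5.34 ± 1.47 CPM (n = 2 each). Mir92-1 and Mir19b-1 each share a mature sequence with a second copy, as do Mir7-1 with Mir7-2 and Mir138-1 with Mir138-2, so the limit on exact reads given for miR-219a-5p holds for these levels too. Mir125a, one of whose products slows the maturation of precursors, had 4159 ± 176 CPM. Mir32, known from myelin in the mouse, had 93.7 ± 18.7 CPM and overlapped the range of Mir219a-1. Mir146, known from myelin repair, had 74.2 ± 10.3 CPM, Mir27a had 61.1 ± 17.3 CPM and Mir212 had 42.7 ± 2.56 CPM. Most of these genes are not restricted to the lineage, and in whole tissue their levels cannot be assigned to it.

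Between the pools, 11 of the 17 detected genes of this list had a counting interval wholly above 1 in library 1 over library 2, against 30.9% of all detected genes. The 11 are not independent of one another. Mir17, Mir18, Mir20a and Mir92-1 among them are of the Mir17 cluster, and Mir138-1 and Mir138-2 are copies. Wholly below 1 were 3 (Mir125a, Mir146 and Mir7-2), against 20.7% of all detected genes, and 3 intervals included 1 (Mir212, Mir19b-1 and Mir7-1). Past 1.5-fold were 3 genes, all higher in library 1, against 12.4% of detected genes in that direction. Mir145a, which is also a smooth muscle gene and stands in the mesenchyme list, had 250.0 CPM in library 1, against 58.3 CPM in library 2, a ratio of 4.29 (3.798 to 4.85). Mir92-1 had a ratio of 1.77 (1.69 to 1.86) and Mir27a of 1.501 (1.28 to 1.77). The median log2 difference of the list was 0.31, against 0.03 over all detected genes and -0.09 over the Mir219a and Mir338 genes. The Mir138 copies, the nearest to these in known function, both had log2 differences of 0.08.

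**Figure D5:**
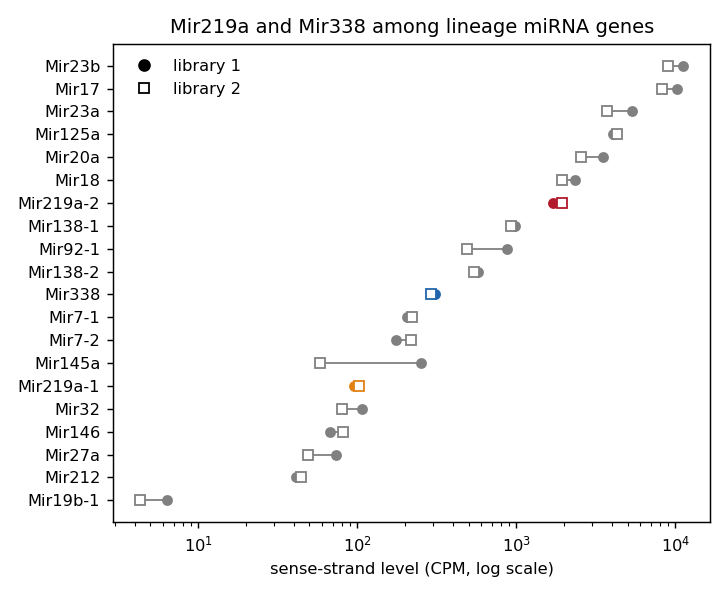
Sense-strand level in CPM (log axis) of Mir219a-2, Mir338 and Mir219a-1 in colour and of the 17 other detected lineage genes in grey, ordered by mean. Filled circles are library 1 and open squares library 2. The coloured pairs lie close together, as do the grey pairs of Mir138-1, Mir138-2 and Mir125a. Mir145a spans 250.0 CPM in library 1, against 58.3 CPM in library 2.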

How the data were processed

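The deposited tables hold raw counts of reads per annotated miRNA gene, 1 table per library, on mm10 with GENCODE M4 per the README files of the deposited libraries. For the aligner and counting tool, names and versions were not given in the sources used here. The deposited counts come without regard to strand and for each strand. The columns bear no names, and the first strand column was taken as sense. It also has the larger total of the strand columns. The 4 leading entries, which name no gene (45.7% and 47.7% of reads), were left out. Sense counts summed to 4228685 in library 1 and 6039889 in library 2, and CPM uses these sums. Symbols and positions came from GENCODE M21, with 1894 of 1973 identifiers matched without version. The 3 genes matched with version.

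A gene was called detected from 10 counts upward in both libraries. Ratios carry 95% exact (Clopper-Pearson) intervals, which were tested on simulated counts that held counting error only. Such a test cannot show how they hold under PCR copies or spread between pools. Levels carry 95% Wilson intervals, which were not tested. With 1 group of 2 libraries, edgeR's test between groups was not run. TMM factors (edgeR 4.0.16) and DESeq2 1.42.0 size factors, in R 4.3.3, served as alternatives, with other library sizes, filters, both strands and leaving out either library. Python 3.11.15, pandas 2.3.3, numpy 2.4.6, scipy 1.17.1 and matplotlib 3.10.9 were used. Genes named were the 3, overlapping miRNA genes, genes sharing a seed, the 3 next above and below in level, and the lineage list. Listed names with no symbol match were looked up among RefSeq synonyms. The genes and lists were chosen with earlier results of these data known. Copy pairs, and ratios between the 3 genes, were added after seeing the data.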

Additional observations from a re-analysis of the deposited data

Results flagged for a closer look

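Reads on the strand opposite to Mir219a-1 numbered 5 in library 2, above the 3 reads that a count of 0 allows, and 2 in library 1, both under the 10 reads used to call a gene detected. This column is outside the sense-strand levels, and Mir219c is annotated on that strand.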

How the results depend on the processing

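Of 58 values recomputed under alternatives, 11 moved and 47 stayed within the spread between the libraries, the counting interval or 1.5 times the count. A change of direction was counted only for a difference beyond counting error, which only Mir219a-2 had, and 0 were found. Levels and ratios with either library left out count among the 47. With 2 libraries they always lie within the spread, so their staying there shows nothing. Mean levels under TMM and DESeq2 factors, which rescale the libraries about a common size, could hardly move either. For Mir219a-2 the mean was 1816 CPM under each. Levels depend on the denominator. Without the 3 most abundant genes in the library sizes, Mir219a-2 stood at 3406 CPM, Mir338 at 559 CPM and Mir219a-1 at 185 CPM. Over all reads they stood at 949.5, 156 and 51.7 CPM. The log2 difference of Mir219a-2 was -0.27 and -0.14 under these settings, and that of Mir338, whose interval includes 0, was -1.15e-05 under the first. Per base of hairpin, an alternative chosen after seeing the data, the ratio of Mir219a-2 to Mir219a-1 was 20.8 in place of 18.3. Reads need not scale with hairpin length, so the value per base is no correction of level. Genes past 1.5-fold between the libraries numbered 48 of 363, 163 of 573 with no filter (106 higher in library 1 and 57 lower) and 29 of 270 with at least 100 counts (29 and 0). Leaving out either library gave 1693 to 1935 CPM for Mir219a-2, 290.2 to 306 CPM for Mir338 and 95.8 to 102 CPM for Mir219a-1. No paired analysis was possible because there is a single group. At these depths, and for every gene alike, a count of 0 sets a limit of 0.709 CPM in library 1, against 0.497 CPM in library 2.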
